A study of Rattus norvegicus with 99 samples.

Results

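The left ventricle (LV) in compensated pressure overload was compared with sham LV in whole tissue RNA-seq of rats, after the animals whose ventricle labels are in question had been set aside. By their titles 7 LV libraries came from rats with aortic banding in the hypertrophy stage (AOB-H) and 7 from the matched sham rats (Sham-H). AOB-H animal 12 and Sham-H animal 1 were left out, because the difference between their right ventricle (RV) and LV libraries ran opposite to that of the other animals. This left 6 AOB-H and 6 Sham-H libraries, 12 of the 33 LV libraries and of the 99 libraries of the series, each from another animal. The AOB-H animals are 5, 7, 9, 10, 16 and 20, and the Sham-H animals are 4, 8, 13, 14, 17 and 21.

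All animals were male F1 rats of Wistar Kyoto mothers and Lewis fathers. RNA was taken from LV, RV and septum (Spt) of each of 33 hearts. By the labels AOB-H and Sham-H rats were 11 weeks old, 7 weeks after banding of the aorta or sham surgery, and the clip did not constrict the vessel when it was placed. Rats with pulmonary artery banding (PAB-H, 6 LV libraries without animal 22, which was also reversed) had the same age and time, and there the band loads the RV and not the LV directly. The failure stage was represented by 4 AOB-F and 3 Sham-LF rats, 30 weeks old and 24 weeks after surgery by the labels, while the ages in the text of the study differ from the labels. The samples are whole tissue, so that cardiomyocytes, fibroblasts, endothelial cells and immune cells contributed to every value.

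A band on the aorta raises the pressure against which the LV ejects. Cardiomyocytes react to such a load by growing, by re-expressing genes of the fetal heart such as the natriuretic peptides Nppa and Nppb, the slow myosin heavy chain Myh7 and the skeletal alpha-actin Acta1, and by raising proteins that bind titin, the elastic filament of the sarcomere, among them the muscle ankyrin repeat proteins Ankrd1, Ankrd2 and Ankrd23. In a compensated heart pump function is held, whereas in the failing heart fibrosis and a lower expression of genes of fatty acid oxidation are commonly seen.

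The 2 animals were chosen by the values of these same data, so the check of the labels is a description. For each animal 50 genes that separated RV from LV in the other animals were used, and the signed RV minus LV difference was divided by the median of the other animals, so that 1 is a typical heart. Animal 12 had a ratio of -1.28, animal 22 of -1.06 and animal 1 of -1.0. The animal nearest to 0 on the kept side was a PAB-H rat with 0.369, and the lowest kept value among the compared animals was 0.446 in Sham-H animal 21. The compared animals thus ranged from 0.446 to 1.25 (animal 14), and no animal lay between -1.0 and 0.369.

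**Figure D1:**
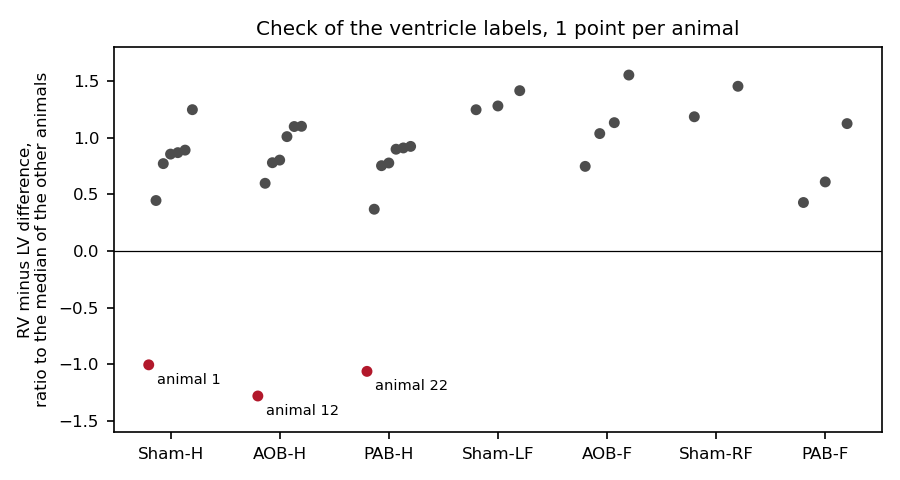
Ratio of the signed RV minus LV difference of each animal to the median of the other animals (50 genes, log2 scale with a pseudocount of 0.5), by condition; 1 point is 1 animal. Animals 12, 22 and 1 lie between -1.28 and -1.0, and the lowest of the other animals lies at 0.369.

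The total counts of the 12 LV libraries were 15.4 to 24.2 M (mega), against 12.1 to 24.2 M over the series. The libraries were numbered in 3 runs, called library series here, and AOB-H and Sham-H had 1 and 2 animals in series 1, 3 and 3 in series 2, and 2 and 1 in series 3. The first principal component of the 12 libraries held 65.7% of the variance. The share of its variance between series was 0.901, and between conditions 0.0873, so the series was a term in the fit. The component set series 1 (46.4 to 53.4) apart from series 2 (-36.0 to -0.294) and series 3 (-28.5 to -21.1), and the latter 2 overlapped. The values of series 3 rest on 1 sham animal.

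No gene passed an adjusted p of 0.05 in AOB-H against Sham-H LV. Of 11145 genes tested with the edgeR quasi-likelihood test, 0 were differentially expressed genes (DEGs, 0.0%; lowest adjusted p, 0.439), and 657 (5.90%) had an unadjusted p under 0.05, 355 (3.19%) higher and 302 (2.71%) lower in AOB-H. DESeq2 on the same counts and design called 7 DEGs (0.0628%) and gave 632 genes with an unadjusted p under 0.05. The 7 DEGs of DESeq2 were higher Maoa (DESeq2 adjusted p, 0.000991), Dusp26 (0.0140), Gba3 (0.0368) and F13a1 (0.0464), and lower Art1 (0.00474), Zfp36 (0.0108) and Eno3 (0.0183). Since no gene passed the edgeR test, all differences below are described by their values, the unadjusted p of edgeR and the share of all genes with such a p, and none is called a rise or fall. A gene is written as higher or lower where its unadjusted p was under 0.05, and its adjusted p by edgeR was 0.439 or more in this comparison. Levels are in CPM, counts per 1 M counts of the library, scaled over the 12 libraries, and differences are log2 fold changes with their standard error, AOB-H minus Sham-H.

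Genes of titin-linked proteins and fetal genes were among the higher genes. Ankrd23, an ankyrin repeat protein of the titin N2A region, was at 46.2, 48.9, 105, 133, 186 and 580 CPM in AOB-H animals 7, 5, 10, 16, 20 and 9. The Sham-H animals ranged from 42.1 to 66.8 CPM with a median of 56.3 CPM. Thus 4 AOB-H animals lay above all shams and animals 5 and 7, both of series 3, lay among them. The log2 fold change was 1.47 ± 0.43 (adjusted p = 0.821).

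The promoters of Ankrd23, Acta1 and Tceal7 are shown because these genes had 4 AOB-H animals above all shams and hold the M-CAT motif described below. Nppa also had 4 such animals and a promoter entry, but it does not hold the motif and is not printed. The printed genes were thus chosen by the motif, and 429 of the genes tested (3.85%) had at least 4 such animals. Of 8 genes looked up, 6 had an entry in the RefSeq promoter table (GRCr8), and Ankrd1 and Penk had none. The 250 bases before the annotated start are given 5′ to 3′ on the strand of the gene. Capitals mark an M-CAT motif (CATTCC, searched on both strands), which the TEAD factors bind, in Acta1 also a CArG box (CC, 6 A or T, GG), which serum response factor binds, and a TATA box (TATAAA, searched on the strand of the gene).

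Ankrd23, chr9:46274511-46274760, minus strand: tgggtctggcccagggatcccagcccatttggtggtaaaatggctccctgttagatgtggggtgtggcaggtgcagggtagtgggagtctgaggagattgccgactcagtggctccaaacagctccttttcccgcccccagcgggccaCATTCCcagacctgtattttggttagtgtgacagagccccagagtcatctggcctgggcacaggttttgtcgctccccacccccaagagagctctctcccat
Acta1, chr19:68784195-68784444, minus strand: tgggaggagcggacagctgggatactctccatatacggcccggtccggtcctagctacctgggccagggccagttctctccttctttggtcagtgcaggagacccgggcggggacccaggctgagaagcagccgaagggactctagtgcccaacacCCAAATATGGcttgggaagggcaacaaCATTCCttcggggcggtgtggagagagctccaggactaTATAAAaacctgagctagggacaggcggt
Tceal7, chrX:104019834-104020083, plus strand: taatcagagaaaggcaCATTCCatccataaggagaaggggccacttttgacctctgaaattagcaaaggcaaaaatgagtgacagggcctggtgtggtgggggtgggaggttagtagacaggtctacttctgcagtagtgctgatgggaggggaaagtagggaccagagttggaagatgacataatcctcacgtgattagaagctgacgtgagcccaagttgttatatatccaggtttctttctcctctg

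The M-CAT letters lie at -102 to -97 from the start in Ankrd23, at -67 to -62 in Acta1 and at -234 to -229 in Tceal7. Of 33469 rat promoter windows of the same length 4037 (12.1%) hold these letters on either strand, 1.5% hold a CArG box and 8.06% a TATA box. The match is a description of the letters and not of binding. Sites of AP-1 and MEF2 were searched as well and were not found in any of the promoters looked up. Of the other promoters found, Nppb also holds the M-CAT letters, on the opposite strand (GGAATG), and Nppa and Myh7 do not hold them in this window.

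Further members of the titin-linked list were higher by smaller amounts. Xirp2, a Xin protein that binds actin at the intercalated disc, ranged from 453 to 1608 CPM (median 571) in AOB-H and from 310 to 563 (median 408) in Sham-H, a log2 fold change of 0.76 ± 0.24. Ankrd1, which binds titin and shuttles to the nucleus, had 5736 to 11802 CPM (median 7917) in AOB-H and 5564 to 7885 (median 6682) in Sham-H (0.35 ± 0.14). Pdlim5, a protein of the Z-disc, had 192 to 385 CPM in AOB-H and 160 to 322 in Sham-H (0.22 ± 0.10). All of these groups overlapped. Ankrd2, at 0.390 to 1.81 CPM in AOB-H and 0.467 to 1.04 in Sham-H, differed by less than its error (0.17 ± 0.35, unadjusted p above 0.05). Of the 15 tested genes of titin-linked and stretch-sensing proteins, 4 were higher and 0 lower at an unadjusted p under 0.05. Over all genes 3.19% were higher and 2.71% lower. The list had a median log2 fold change of 0.15 against 0.0060 over all genes.

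Of the 20 tested fetal and hypertrophy genes, 10 were higher and 3 lower at an unadjusted p under 0.05 (median 0.32), against 3.19% and 2.71% of all genes. Among the higher ones were Penk, Rcan1, Tceal7, Uchl1, Hopx, Fhl1, Enah, Acta1 and Ncam1, and the lower ones were Myh6, the fast myosin heavy chain of the adult rat heart, and the atrial light chains Myl4 and Myl7. Acta1 ranged from 1151 to 4317 CPM in AOB-H (median 1741) and from 1180 to 1598 in Sham-H (median 1329). Again animals 9, 10, 16 and 20 were above all shams, and animal 5 was below all of them. The log2 fold change of Acta1 was 0.59 ± 0.23. Tceal7, a nuclear protein of the transcription elongation factor A-like family, had 8.88, 9.36, 30.3, 30.7, 30.7 and 110 CPM in animals 5, 7, 10, 20, 16 and 9, against 10.8 to 16.5 CPM in Sham-H (median 13.3). Thus 4 animals stood above and the other 2 below every sham. Tceal7 differed by 1.30 ± 0.40 (adjusted p = 0.827).

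Penk and Rcan1 were higher with a narrower range of AOB-H levels than Ankrd23. Penk, the precursor of the enkephalin peptides, ranged from 118 to 299 CPM in AOB-H (median 185) and from 95.5 to 184 CPM in Sham-H (median 118). The groups overlapped, with 3 AOB-H animals above all shams, and the difference of 0.77 ± 0.19 (adjusted p = 0.817) kept its sign in each library series (1.12, 0.78 and 0.38). Rcan1, an inhibitor of calcineurin that is itself induced by calcineurin signalling, had 330 to 573 CPM in AOB-H and 290 to 352 CPM in Sham-H, and 5 of 6 AOB-H animals were above all shams (0.38 ± 0.10).

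**Figure D2:**
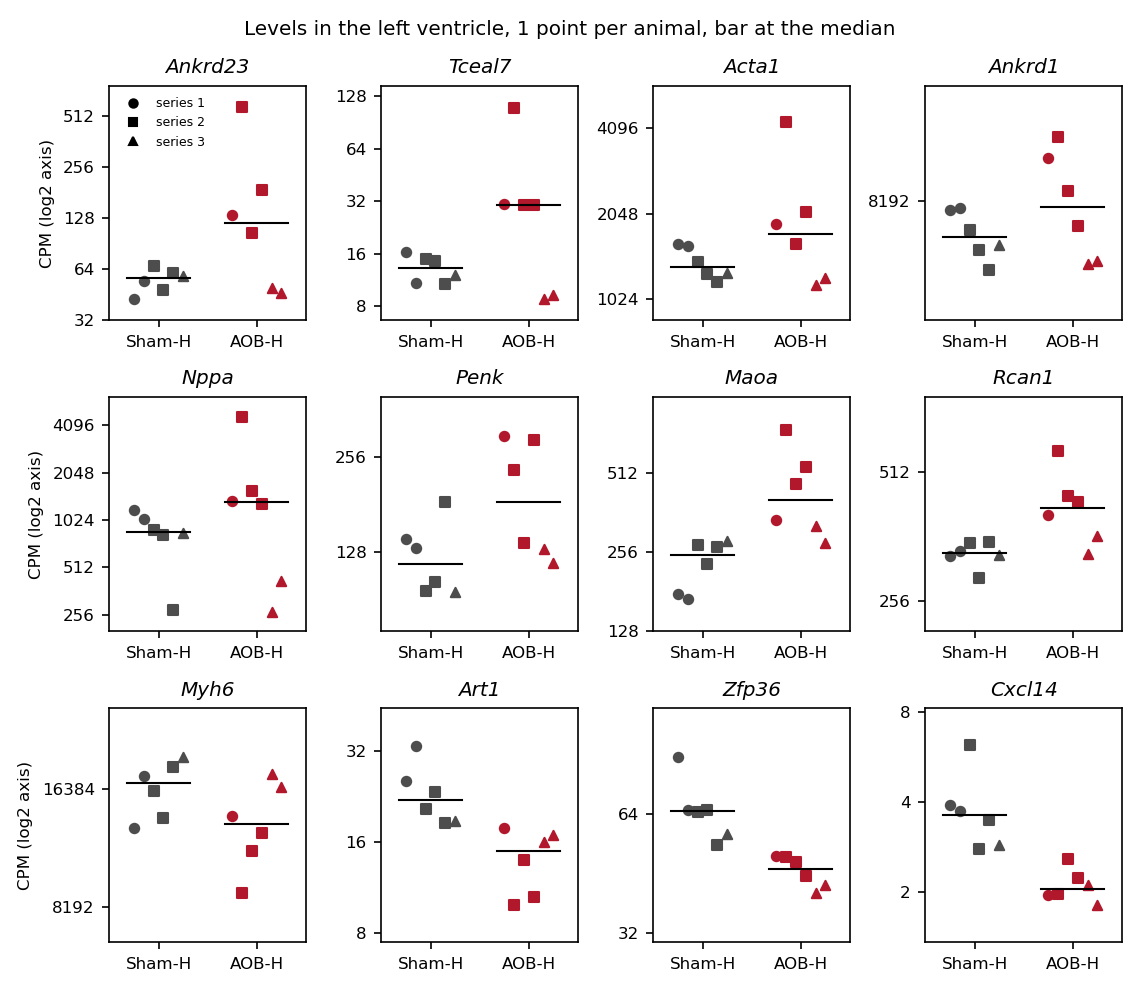
Level in CPM (log2 axis) of 12 named genes in the 6 Sham-H and 6 AOB-H LV libraries, 1 point per animal, with a bar at the median and the shape of the point for the library series. In Ankrd23, Tceal7, Acta1 and Nppa the AOB-H animals of series 1 and 2 lie above all shams and those of series 3 do not, and in Art1, Zfp36 and Cxcl14 the groups do not overlap.

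Nppa, Nppb and Myh7 had positive values in AOB-H with an unadjusted p above 0.05. Nppa was at 268, 422, 1303, 1347, 1557 and 4637 CPM in animals 5, 7, 20, 16, 10 and 9, against 276 to 1180 CPM in Sham-H (median 863). The 4 animals of series 1 and 2 were above all shams and animal 5 was below them. The log2 fold change was 0.71 ± 0.51 (adjusted p = 0.848), and within the library series it was 0.28, 1.85 and -1.33. Nppb ranged from 267 to 815 CPM in AOB-H and from 167 to 512 in Sham-H (0.35 ± 0.25), and Myh7 from 4665 to 15140 and from 4433 to 8349 CPM (0.40 ± 0.25). Myh6, in contrast, had 8883 to 17834 CPM in AOB-H and 13044 to 19729 CPM in Sham-H, and 3 of 6 AOB-H animals were below all shams (-0.37 ± 0.13). Of the 9 genes of natriuretic peptides and their receptors 1 was higher, Npr3, the clearance receptor (9.03 to 28.5 against 5.73 to 17.3 CPM, 0.46 ± 0.18), with a list median of 0.02.

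The gene with the lowest p was Maoa, monoamine oxidase A of the outer mitochondrial membrane, which degrades noradrenaline and serotonin. It had 277, 321, 338, 465, 539 and 744 CPM in animals 7, 5, 16, 10, 20 and 9, and 170 to 280 CPM in Sham-H (median 248). Animals 5, 9, 10, 16 and 20 were above all shams, and animal 7 was just below the highest sham. The difference was 0.86 ± 0.16 (adjusted p = 0.439), and within the library series it was 0.96, 1.16 and 0.09. Gba3, a cytosolic beta-glucosidase, had 0.487 to 3.99 CPM in AOB-H and 0.407 to 1.15 CPM in Sham-H (1.57 ± 0.31, adjusted p = 0.439), and Dusp26, a dual-specificity phosphatase, 4.24 to 12.6 and 3.54 to 6.13 CPM (0.86 ± 0.17). F13a1, the A subunit of coagulation factor XIII, which tissue macrophages also express, had 51.8 to 87.7 CPM in AOB-H and 37.5 to 53.1 CPM in Sham-H (0.49 ± 0.11). Among the next genes were the Wnt ligand Wnt9b (0.76 ± 0.17), the homeobox factor Prrx1 of mesenchymal cells (0.50 ± 0.12), Phyhipl (2.00 ± 0.50), Akip1, which binds protein kinase A (1.02 ± 0.26), and the receptor phosphatase Ptprt (0.69 ± 0.18).

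In some of the lower genes the groups did not overlap, as in 10 of all genes tested (0.0897%). Groups of this size separate by chance in some of so many genes, and the count was not tested against that. Art1, a mono-ADP-ribosyltransferase of the surface of muscle cells, had 9.90 to 17.8 CPM in AOB-H (median 14.9) and 18.4 to 33.2 CPM in Sham-H (median 21.9), a difference of -0.67 ± 0.13 (adjusted p = 0.439). Its relative Art5 had 1.81 to 5.45 against 5.57 to 10.6 CPM (-0.71 ± 0.18). Neither group overlapped the other in these 2 genes. Zfp36, tristetraprolin, which speeds the decay of mRNAs with AU-rich elements, had 40.5 to 50.2 CPM in AOB-H and 53.5 to 89.1 CPM in Sham-H (-0.45 ± 0.09, adjusted p = 0.439). Eno3, the muscle enolase of glycolysis, had 280 to 650 CPM in AOB-H and 583 to 840 CPM in Sham-H (-0.55 ± 0.12), with 4 of 6 AOB-H animals below all shams. Cxcl14, a chemokine, had 1.8 to 2.58 against 2.79 to 6.19 CPM (-0.82 ± 0.19), and Zfp13, a zinc finger gene, 1.29 to 2.26 against 2.42 to 3.78 CPM (-0.78 ± 0.18). Among the other genes of lowest p were the Wnt ligand Wnt5b (-0.59 ± 0.14), the secreted Wnt antagonist Sfrp5 (-0.95 ± 0.23), the protein phosphatase inhibitor Ppp1r1a (-0.42 ± 0.10), Rab15 (-1.11 ± 0.28) and the magnesium transporter Slc41a3 (-0.35 ± 0.09).

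The levels of the 6 AOB-H animals lay entirely above those of the 6 shams in 6 genes (0.0538% of genes tested) and entirely below in 10 (0.0897%). The 6 were Nlrp3, the sensor of an inflammasome (2.44 to 4.27 against 1.15 to 2.44 CPM, without overlap before rounding, 0.66 ± 0.19), Usp33, Smc6, Pla2g2d, Gpbp1 and Peli3. The 10 were Art1, Art5, Zfp36, Zfp13, Cxcl14, Marcksl1, Tmem101, Pcif1, Tmem115 and Magee1. With the levels scaled over all 99 libraries, a choice made after seeing the data, the counts were 3 above (0.0269%) and 16 below (0.144%). Genes with at least 4 of 6 AOB-H animals above all shams, as for Ankrd23 and Acta1, numbered 429 (3.85%), and with 4 below, 536 (4.81%).

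Some matricellular genes were higher in AOB-H at an unadjusted p under 0.05, whereas Col1a1 and Col3a1 had negative values at an unadjusted p above 0.05. Thbs4, thrombospondin 4, had 0.926, 1.43, 5.95, 7.77, 8.47 and 31.1 CPM in animals 7, 5, 10, 16, 20 and 9, and 1.77 to 4.34 CPM in Sham-H (median 2.23). As for Tceal7, 4 animals were above and 2 below all shams, and the difference was 1.75 ± 0.48. Ltbp2, a microfibril protein of the family that binds latent TGF-beta, had 5.63 to 54.2 CPM against 4.89 to 9.51 (1.12 ± 0.43), and Postn, periostin of activated fibroblasts, 6.50 to 102 CPM against 7.01 to 11.7 (1.33 ± 0.53). Fbln1, fibulin 1, was tighter, with 92.2 to 131 CPM in AOB-H and 81.3 to 106 in Sham-H (0.30 ± 0.08). Col1a1 had 194 to 439 CPM in AOB-H (median 249) and 228 to 461 in Sham-H (median 349), -0.30 ± 0.21 (unadjusted p above 0.05), and Col3a1 783 to 1482 and 915 to 1501 CPM, -0.28 ± 0.16 (unadjusted p above 0.05). In both collagens the groups overlapped. Of the 41 tested collagens and matricellular genes 6 were higher (Thbs4, Fbln1, Ltbp2, Tgfb2, Postn and Spp1) and 1 lower (Col5a3), with a median of 0.11. Of 11 basement membrane genes 1 was lower (Col18a1) and 0 higher. Over all genes 3.19% were higher and 2.71% lower.

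The genes of energy metabolism gave few differences. Over all genes 3.19% were higher and 2.71% lower. Of 34 tested genes of fatty acid uptake and oxidation 1 was higher, Pdk4, a kinase that inhibits pyruvate dehydrogenase (45.6 to 199 against 20.4 to 151 CPM, 0.65 ± 0.18), and 0 lower, with a median of -0.02. Of 86 nuclear-encoded subunits of the respiratory chain 0 were higher and 2 lower (Ndufs7 and Atp5d), the median was -0.09, and 76 had a negative value, against 47.9% of all genes. The AOB-H animals differed, and the genes of the list are not independent. Against the shams of its own series the list median was -0.39, -0.27 and -0.10 in animals 20, 9 and 5. It was 0.01, 0.02 and 0.09 in animals 7, 10 and 16. Of 25 genes of glucose uptake and glycolysis 2 were lower, Eno3 and Eno1, and 0 of 6 creatine kinase genes were higher or lower.

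Over all genes 3.19% were higher, 2.71% lower and 52.1% had a positive value, and lists with 1 or 2 members called are not read as results about the list. Of 18 heat shock chaperones 3 were higher (Hspb1, Hspb8 and Hspa8; median 0.15), and 16 had a positive value. Of 22 calcium cycling proteins 2 were lower, the histidine-rich calcium-binding protein Hrc and sarcolipin, Sln. Atp2a2, the calcium pump of the sarcoplasmic reticulum, had 7912 to 11795 CPM in AOB-H and 7778 to 13551 CPM in Sham-H (-0.09 ± 0.12, unadjusted p above 0.05). Of 23 channel and connexin genes Hcn2 was higher and Kcna5 lower. Of 30 immediate early genes 2 were lower, Zfp36 and Arc, and of 16 clock genes Clock was higher and Dbp and Per1 lower. The remaining lists had 1 higher and 2 lower of 29 genes of hypertrophic signalling (Rcan1, with Pik3ip1 and Klf15), 1 higher of 7 EGF family genes (Tgfa), 2 higher and 1 lower of 27 cytokines and growth factors (Inhba and Fgf2, with Pdgfa), and 1 higher of 11 genes of the angiotensin and adrenergic systems (Grk5). Interferon-stimulated genes (24), cell cycle genes (29) and cytosolic ribosomal proteins (78) had 0 higher and 0 lower members, with medians of -0.02, -0.13 and 0.03.

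The study lists genes of isolated LV cardiomyocytes for each stage of AOB, which were tested here in whole tissue. Of the list for AOB-F 104 of 117 genes were tested, of which 23 were higher and 1 lower in AOB-H LV, with 83 positive values and a median of 0.18. Among the 23 were Akip1, Nlrp3, Ankrd23, Ctss, Xirp2, Ltbp2 and Tgfa, and the lower gene was Lcn2. Of the list for AOB-H 10 genes were tested, of which 1 (Tceal7) was higher and 0 lower, with a median of -0.02. Over all genes 3.19% were higher, 2.71% lower and 52.1% had a positive value.

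The lists differed between the AOB-H animals. Against the shams of its own library series, the median of the fetal and hypertrophy genes was 0.65 in animal 9, 0.25 to 0.30 in animals 10, 16 and 20, and -0.14 and -0.09 in animals 5 and 7. For the AOB-F cardiomyocyte list the medians were 0.63 in animal 9, 0.19, 0.07 and 0.05 in animals 10, 20 and 16, and -0.03 in both animals of series 3. The matrix list had a median of 0.59 in animal 9 and from -0.11 to 0.04 in the other animals. Without animal 9 (AOB-H replicate 3), 10 fetal and hypertrophy genes were higher and 5 lower of 21 tested (median 0.17), 5 matrix genes higher and 4 lower (median -0.02), 2 titin-linked genes higher, and 15 genes of the AOB-F list higher and 2 lower (median 0.08), against 214 higher and 200 lower over all genes. The difference in Ankrd23 was then 0.93, in Tceal7 0.78, in Acta1 0.29, in Thbs4 1.07, in Ltbp2 0.44, in Postn 0.41 and in Nppa 0.24. These settings were chosen after seeing the data, apart from those for single genes.

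Single libraries moved the counts of many lists. With each of the 12 libraries left out in turn, also chosen after seeing the data, the fetal and hypertrophy genes had 8 to 12 higher and 1 to 5 lower members (1 without Sham-H replicate 7, animal 8), and the AOB-F list 12 to 33 higher. The matrix list had 2 to 8 higher and 1 to 5 lower (2 and 5 without Sham-H replicate 5, animal 21), the titin-linked list 2 to 6 higher, and the macrophage markers 1 to 8 higher (1 without animal 21, 8 without animal 8). The heat shock chaperones had 0 to 8 higher, with 0 without AOB-H animal 9 or Sham-H animal 17, 1 without AOB-H animal 16 or Sham-H animal 14, and 8 without Sham-H animal 21. Hspb1 and Hspa8 were below the sham of series 3 in both AOB-H animals of that series. The lower clock genes numbered 0 to 4, with 0 without AOB-H animal 9, 10 or 16 or Sham-H animal 4 or 14, and Dbp and Per1 were above the sham of series 3 in both AOB-H animals of that series. The respiratory chain had 0 to 10 lower members and the glycolysis list 1 to 6.

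**Figure D3:**
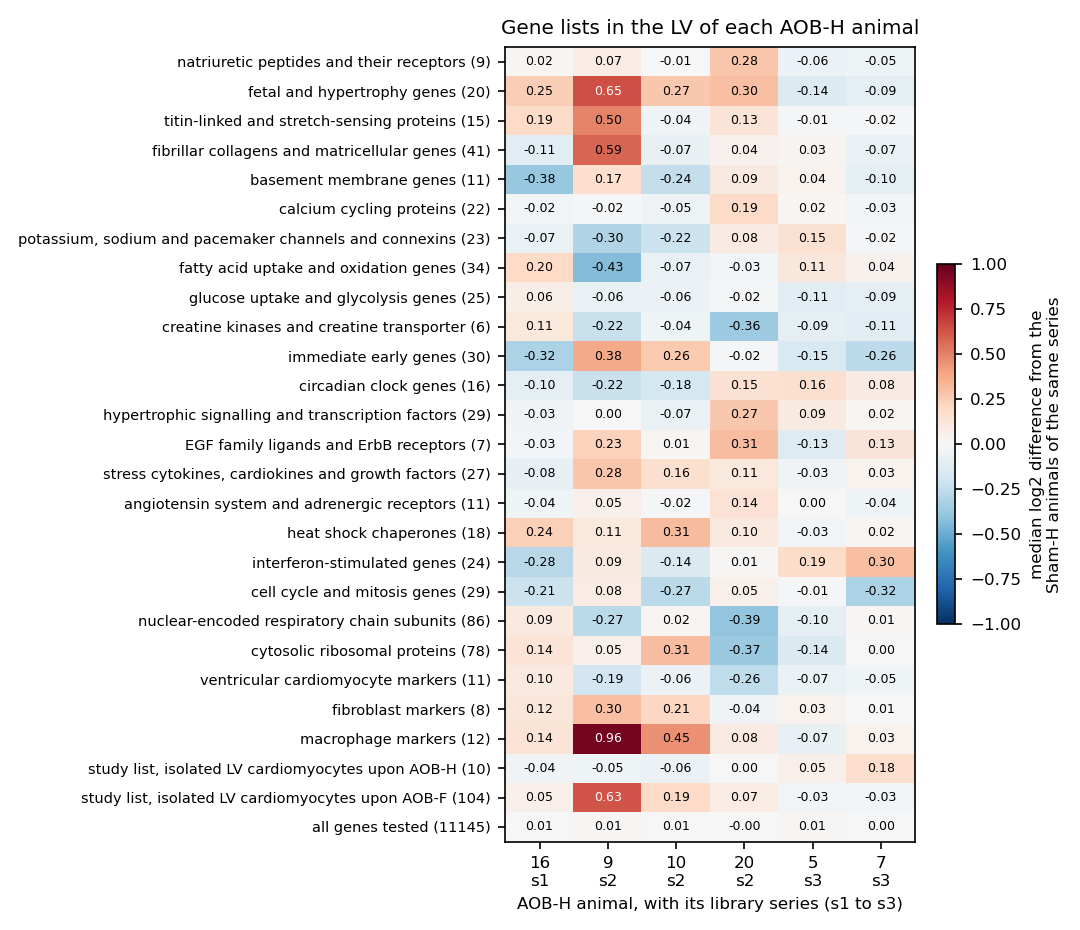
Median log2 difference of each gene list (rows, with the number of genes tested) in each AOB-H animal (columns) from the Sham-H animals of the same library series, from blue (lower) to red (higher). Animal 9 has the highest median for the macrophage markers (0.96), the fetal and hypertrophy genes (0.65) and the matrix list (0.59).

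Markers of cell types were summed in each library to see what moved with these values. Fewer cells of a type and less RNA per cell cannot be told apart in whole tissue. Of 12 macrophage markers 5 were higher at an unadjusted p under 0.05 (Mrc1, Cd163, C1qb, C1qa and Cd14), 0 were lower and all 12 had a positive value (median 0.31). The shares over all genes were 3.19% higher, 2.71% lower and 52.1% positive. Their summed level was 600 to 1260 CPM in AOB-H (median 728) and 487 to 799 CPM in Sham-H (median 670), so that the groups overlapped. Without animal 9, 2 of the 12 were higher and the median was 0.16. The part of macrophages in Ctss, F13a1 and Nlrp3 was not tested.

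Some atrial markers were lower. Myl7, Myl4 and Sln are a small part of the summed level of the list, so the sum cannot show a change in them. The sum of 10 atrial markers was 3412 to 4307 CPM in AOB-H (median 3759) and 3275 to 3917 CPM in Sham-H (median 3641), with 2 AOB-H animals above all shams and 0 below. Myl7, the atrial light chain 2, had 2.14 to 34.9 CPM in AOB-H (median 9.25) and 10.5 to 166 CPM in Sham-H (median 78.4), -2.25 ± 0.81. Myl4 had 1.51 to 14.4 against 5.73 to 74.2 CPM (-2.01) and Sln 1.12 to 9.39 against 2.86 to 35.6 CPM (-1.70 ± 0.59). In Sham-H animals 8, 13, 14 and 17 Myl7 was at 62.3 to 166 CPM, and in animals 4 and 21 at 10.5 and 11.2 CPM. Of 8 tested atrial markers 4 were lower and 1 higher (Pam), against 2.71% and 3.19% of all genes, and 3 had a positive value. Without Sham-H animal 8, the only sham of series 3, 1 was lower and 1 higher, and with a replicate block 1 was lower and 0 higher. Sln differed by -2.35, -0.09 and -3.83 in series 1, 2 and 3. In AOB-F 4 of 9 tested atrial markers were higher and 1 lower, with sums of 3658 to 5424 CPM against 3380 to 3575 CPM in Sham-LF. Sln was at 80.8 CPM in AOB-F replicate 4 and at 1.84 CPM in replicate 1, against 3.39 to 4.01 CPM in Sham-LF. Nppa is abundant in atrial tissue as well, and the part of atrial tissue in its values was not tested.

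Of 7 Schwann and nerve markers 3 were lower, Gfra3 and Sox10 among them, and 1 higher (Dbh), against 2.71% and 3.19% of all genes. Their sums were 25.3 to 51.9 CPM in AOB-H and 30.2 to 55.8 CPM in Sham-H. The lower markers numbered 0 to 4 with 1 library left out, with 0 without AOB-H animal 16 or Sham-H animal 17 and 1 without AOB-H animal 5 or 9 or Sham-H animal 8, and 0 with a replicate block. Ventricular cardiomyocyte markers summed to 91468 to 134590 CPM in AOB-H and 106064 to 139922 CPM in Sham-H, and 4 of 6 AOB-H animals were below all shams. Of these, animal 5 at 106001 CPM was nearly level with the lowest sham. In series 1 AOB-H animal 16, at 134590 CPM, lay between the shams at 122043 and 139922 CPM. These markers were abundant in every library, but they are of ventricular muscle in general and do not tell LV from RV. Of the fibroblast markers 1 (Pdgfra) was higher. Endothelial, smooth muscle, lymphocyte, neutrophil, adipocyte, mesothelial and blood cell markers had 0 members at an unadjusted p under 0.05. For the mesothelial and epicardial markers this rested on 1 sham. Their median was -0.21 over the 12 libraries, -1.35 and -1.87 in animals 5 and 7 against the sham of series 3 (animal 8), and 0.14 to 0.97 in the other AOB-H animals. Without library series 3, 4 of the 7 were higher and the median was 0.69, and without animal 8 alone 3 were higher.

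**Figure D4:**
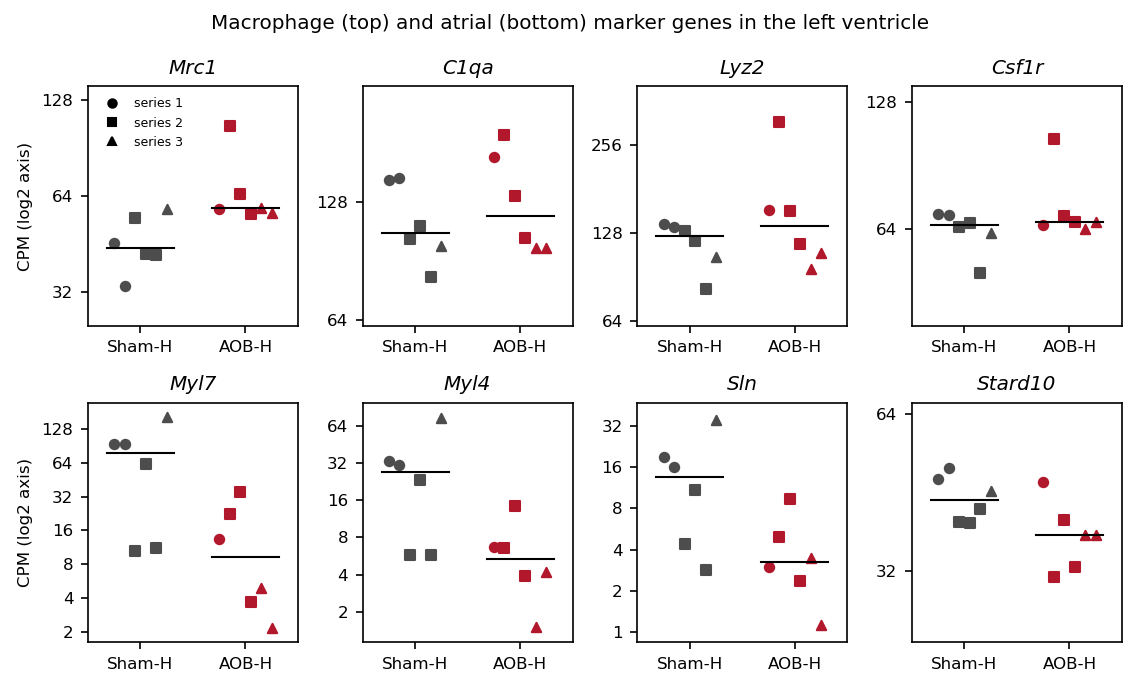
Level in CPM (log2 axis) of macrophage markers (upper row) and atrial markers (lower row) in the 6 Sham-H and 6 AOB-H LV libraries, 1 point per animal, with a bar at the median and the shape of the point for the library series. Myl7 is at 2.14 to 34.9 CPM in AOB-H and at 10.5 to 166 CPM in Sham-H, and AOB-H animal 9 is highest in Mrc1, Lyz2 and Csf1r.

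The failure stage shares no library with the hypertrophy stage, so that genes can be followed from one to the other. AOB-F against Sham-LF (n = 4 and 3), from 1 fit of both stages, had 0 DEGs by edgeR (0.0%) of 11488 genes (lowest adjusted p, 0.0994), 277 by DESeq2, and 1875 genes (16.3%) with an unadjusted p under 0.05, 1021 higher (8.89%) and 854 lower (7.43%). The edgeR count depended on single libraries, with 836 DEGs without AOB-F replicate 3, 53 without AOB-F replicate 2 and 79 without AOB-H replicate 3 (animal 9), whose spread enters the same fit, and 0 without any 1 of the others. These settings were chosen after seeing the data. Levels of this stage are scaled over all 99 libraries. Ankrd23 was at 196, 387, 774 and 916 CPM in AOB-F and at 77.9, 101 and 118 CPM in Sham-LF (2.52 ± 0.61, adjusted p = 0.101). Tceal7 was at 52.5, 78.6, 216 and 236 CPM against 19.9, 32.1 and 37.9 CPM, a difference of 2.28 ± 0.58. Maoa was at 610, 629, 1279 and 1663 CPM against 305, 463 and 472 CPM (1.34 ± 0.31, adjusted p = 0.0994). In each of these genes all AOB-F libraries were above all Sham-LF libraries, as in 681 genes (5.93%), while 691 (6.01%) lay entirely below. For these genes the difference in AOB-H had the same sign and was smaller, at 1.47, 1.30 and 0.86. All LV libraries of the failure stage are of series 2, whereas AOB-H and Sham-H span 3 series, so stage and library series are partly confounded. Within series 2 alone the AOB-H differences were 1.95, 1.78 and 1.16, nearer to those in AOB-F.

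Genes with an unadjusted p under 0.05 in AOB-H mostly had the same direction in AOB-F. Of the 355 higher genes 308 (86.8%) had a positive value in AOB-F, against 52.5% of all genes, and 147 (41.4%) were higher at an unadjusted p under 0.05 there, against 8.63%. Of the 302 lower genes 76.2% had a negative value in AOB-F, against 47.5% of all genes, and 92 (30.5%) were lower at an unadjusted p under 0.05, against 7.61%. Across the 11145 genes the log2 fold changes of both stages had a Pearson r of 0.364 and a Spearman rho of 0.321, a description across genes, which are not independent replicates. Without AOB-H animal 9 the shares were 79.9% of 214 higher and 60.5% of 200 lower genes, and r was 0.100. With the 7 failure libraries fitted alone the shares were 87.5% and 75.9%, and without library series 3, 89.4% and 75.2%. These settings were chosen after seeing the data.

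**Figure D5:**
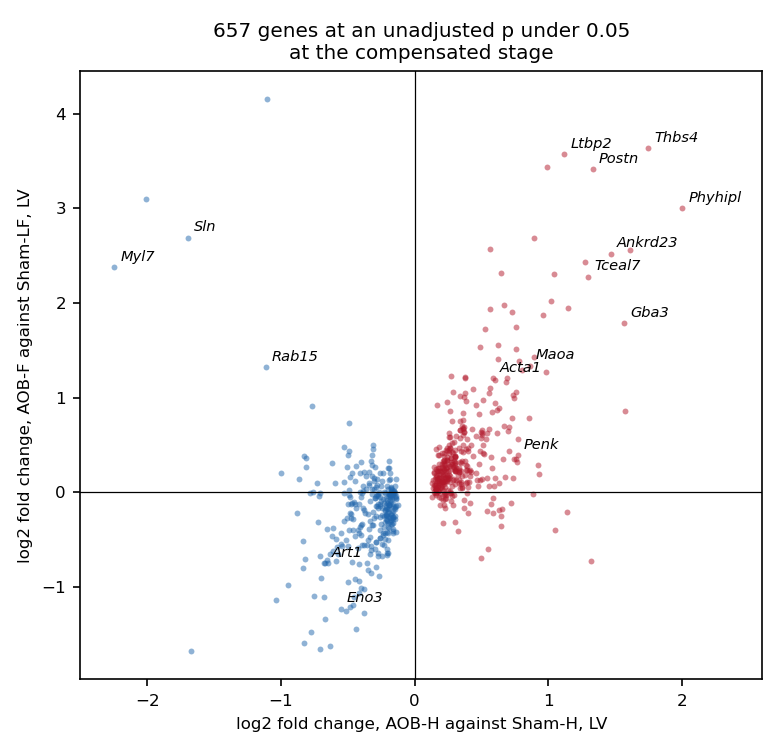
Log2 fold change in AOB-H against Sham-H LV (x axis) and in AOB-F against Sham-LF LV (y axis) of the 657 genes at an unadjusted p under 0.05 in AOB-H, higher genes in red and lower genes in blue. Of the 355 higher genes 308 lie above 0 on the y axis, while Myl7, Sln and Rab15 are lower in AOB-H and lie above 0 in AOB-F. Sln was at 1.84, 4.81, 9.22 and 80.8 CPM in AOB-F and at 3.39, 3.78 and 4.01 CPM in Sham-LF. Rab15 was at 0.0765, 0.244, 0.990 and 3.78 CPM against 0.277, 0.445 and 0.766 CPM. AOB-F replicate 4 held the highest value of both.

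The interaction of stage and banding tests whether the difference itself changed between the stages. It gave 0 DEGs by edgeR (0.0%) of 11488 genes (lowest adjusted p, 0.816) and 0 by DESeq2, with 653 (5.68%) and 661 genes at an unadjusted p under 0.05, and by edgeR 438 (3.81%) were larger and 215 (1.87%) smaller in AOB-F. Nppa was at 2179, 3714, 16124 and 17450 CPM in AOB-F and at 603, 813 and 818 CPM in Sham-LF, so that the difference of 3.73 ± 0.81 exceeded that in AOB-H by 3.02 (adjusted p = 0.816). Nppb differed by 1.45 ± 0.37 in AOB-F and by 1.10 more than in AOB-H. Ltbp2 differed by 3.58 ± 0.78, 2.46 more than in AOB-H. All 3 interactions had an unadjusted p under 0.05. Within series 2, the series of all failure LV libraries, the AOB-H differences were 1.85 in Nppa, 0.76 in Nppb and 1.41 in Ltbp2. The fit lets the banding difference vary by stage and not by series, so stage and series cannot be told apart in the interaction. Ankrd23, Tceal7 and Acta1 differed by 1.06 ± 0.72, 0.99 ± 0.71 and 0.62 ± 0.42 more in AOB-F, none with an unadjusted p under 0.05.

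The collagens were among the genes with a larger difference in AOB-F. Col1a1 was at 173, 211, 335 and 360 CPM in AOB-F and at 127, 145 and 168 CPM in Sham-LF (0.88), 1.18 above its value in AOB-H. Col3a1 followed with 0.68 in AOB-F and an interaction of 0.96. It was at 646, 744, 1197 and 1270 CPM in AOB-F and at 556, 560 and 694 CPM in Sham-LF, so that the groups overlapped. Col8a1, a short-chain collagen, had 1.56 and an interaction of 1.23. Of the 42 tested matrix genes 16 had a larger difference in AOB-F at an unadjusted p under 0.05 (median interaction 0.52) and 40 had a positive interaction. Over all genes 3.81% had a larger and 1.87% a smaller difference in AOB-F, and 8.89% were higher and 7.43% lower there. Of 34 fatty acid genes 9 had a smaller value in AOB-F, 0 a larger one, and all 34 had a negative interaction (median -0.39). In AOB-F 21 of them were lower (median -0.44). Of 12 macrophage markers 10 were higher in AOB-F (median 0.57; sums of 791 to 1554 CPM against 686 to 814 CPM in Sham-LF) and 0 had an interaction at an unadjusted p under 0.05. Of 86 respiratory chain genes 36 were lower in AOB-F and 1 had a negative interaction at an unadjusted p under 0.05. The 3 genes of lowest p in each direction were the myeloid receptor Clec5a (2.24 ± 0.57), the carbonic anhydrase Car3 and Thrsp, a regulator of fatty acid synthesis, and the imprinted RNA H19 (-1.30 ± 0.33), Chmp4c (-0.43) and Myo5b (-0.81). Car3 was near 0 in Sham-LF (0, 0 and 0.118 CPM) and at 0.306, 0.309, 2.27 and 9.75 CPM in AOB-F, and Thrsp at 0.0556, 0.0589 and 0.208 against 0, 0.680, 2.41 and 18.9 CPM, so no fold is given. AOB-F replicate 2 held the highest value of both. Of 8 tested adipocyte markers 3 (Plin1, Cidec and Adipoq) had a larger difference in AOB-F and 0 a smaller one (median interaction 2.06). The sum of the 10 adipocyte markers was 832 to 1324 CPM in AOB-F and 1003 to 1323 CPM in Sham-LF. Plin1 was at 0 in all 3 Sham-LF libraries, so other members carry the sum and it cannot show a change in Plin1. The part of adipose tissue in Car3 and Thrsp was not tested.

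Zfp36 and Pdk4 had an interaction with an unadjusted p under 0.05. Zfp36 was at 41.9, 55.4, 58.1 and 78.1 CPM in AOB-F and at 49.0, 53.9 and 58.2 CPM in Sham-LF (0.12), an interaction of 0.57. Pdk4 differed by -0.18 in AOB-F, an interaction of -0.83. Penk had a difference of 0.39 (unadjusted p above 0.05) in AOB-F, with 149, 168, 220 and 244 CPM against 112, 140 and 194 CPM, and its interaction of -0.37 ± 0.33 had an unadjusted p above 0.05. Eno3, at 150, 181, 324 and 390 CPM in AOB-F and 552, 589 and 701 CPM in Sham-LF, differed by -1.23 ± 0.25 (adjusted p = 0.0994).

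PAB-H LV was taken as a comparison with rats under another band at the same age, since no sham library enters it, although it shares the AOB-H libraries. AOB-H against PAB-H had 0 DEGs by edgeR (0.0%) of 11138 genes (lowest adjusted p, 0.882) and 0 by DESeq2, with 549 (4.93%) and 539 genes at an unadjusted p under 0.05, by edgeR 305 higher (2.74%) and 244 lower (2.19%). Ankrd23 was at 38.7 to 63.6 CPM (median 56.3) in PAB-H, all below 4 of the AOB-H animals (1.41 ± 0.46). Tceal7 was at 7.78 to 17.4 CPM in PAB-H (1.23 ± 0.40) and Maoa at 192 to 316 CPM (0.64 ± 0.21). The genes of lowest p were Gba3 (1.71 ± 0.38), Wnt9b (0.73), the cytochrome P450 Cyp1b1 (0.59), Eno3 (-0.49), Lrfn4 (-0.25) and Ndc80 of the kinetochore (-0.52). Of 20 fetal and hypertrophy genes 9 were higher and 2 lower, and of 12 macrophage markers 7 were higher.

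The septum and RV of the same 12 animals were tested side by side, and share these animals with LV. In RV the edgeR test gave 0 DEGs (0.0%) of 11144 genes and 243 (2.18%) at an unadjusted p under 0.05, 94 higher (0.844%) and 149 lower (1.34%). In Spt it gave 0 (0.0%) of 11137 genes and 345 (3.10%) at such a p, 198 higher (1.78%) and 147 lower (1.32%). Ankrd23 was at 45.8 to 538 CPM in AOB-H Spt against 59.2 to 82.5 in Sham-H Spt (1.56 ± 0.49), and at 29.4 to 151 against 17.6 to 36.3 CPM in RV (1.35 ± 0.40). Tceal7 differed by 0.95 ± 0.53 in Spt and 1.40 ± 0.46 in RV, Maoa by 0.94 ± 0.25 and 0.64 ± 0.21, and Rcan1 by 0.33 ± 0.13 and 0.30 ± 0.11. Thbs4 differed by 2.32 ± 0.75 in Spt and 0.80 ± 0.29 in RV, and Ltbp2 by 1.5 ± 0.57 and 0.10 ± 0.28.

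The chamber interaction compares the banding difference of LV with that of RV. As the RV minus LV difference chose the animals, it is not independent of the choice. It gave 0 DEGs by edgeR (0.0%) of 11347 genes and 0 by DESeq2, with 379 (3.34%) and 231 genes at an unadjusted p under 0.05, and by edgeR 161 (1.42%) had a higher and 218 (1.92%) a lower difference in LV. Ankrd23 (0.04 ± 0.60), Tceal7 (-0.02 ± 0.52) and Acta1 (0.08 ± 0.36) differed between the chambers by less than their errors. Myh6 was lower by 0.32 ± 0.11 more in LV than in RV and Art1 by 0.41 ± 0.14, and Nlrp3 was higher by 0.64 ± 0.24 more. These 3 differences had an unadjusted p under 0.05. Among the genes of lowest p were Cep162 (0.53), Gfpt2 (0.37), Cttnbp2nl (0.24), Pola2 (-0.27) and Rilp (-0.26). Between LV and Spt 0 genes were called by edgeR (0.0%) of 11332, or by DESeq2, with 297 (2.62%) and 209 at an unadjusted p under 0.05, and by edgeR 135 (1.19%) had a higher and 162 (1.43%) a lower difference in LV. The lowest p were those of Krr1 (0.34), Sctr (0.46), Irx2 (0.67), Ctns (-0.69 ± 0.14), Ncam1 (-0.75 ± 0.18) and Epb42 (-1.24). Penk differed by 0.38 ± 0.16 more in LV than in Spt.

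The left-out LV libraries are given without a test, on the scale of all 99 libraries. Animal 12, labelled AOB-H, had 92.2 CPM of Ankrd23, 34.7 of Tceal7 and 1027 of Nppa. Animal 1, labelled Sham-H, had 15.9 CPM of Ankrd23, 4.93 of Tceal7, 564 of Acta1 and 4222 of Nppa, and 1036 CPM of Myl7 and 242 of Sln. Ankrd23 of animal 1 was thus below all other shams, and its atrial genes were above all of them. With both put back by their labels, 7 against 7, edgeR called 0 DEGs and 945 genes had an unadjusted p under 0.05. The difference was then 1.47 in Ankrd23, 1.33 in Tceal7 and 0.18 in Nppa.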

How the data were processed

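RNA was extracted with TRIzol and polyadenylated libraries were made with NEBNext Ultra II per the labels. For the counts, the authors ran Trim Galore, STAR with genome Rnor6.0, and featureCounts, in which a read over several genes was not counted. The study's methods call the kit directional, and the strand setting of the counting is not given in the sources used here. The deposited table lists 17337 genes, 2218 of them without counts, and each library had 3 columns. The deposited counts are whole numbers without normalization. The normalized counts, a signal on a linear scale, were made by the authors with DESeq2, and the deposited FPKM values were also the authors' own. Only the counts were used here. Library totals were 12.1 to 24.2 M, which limits the precision of genes of low level.

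Samples were grouped by their titles. Counts were tested with edgeR 4.0.16 (limma 3.58.1, R 4.3.3), using TMM, filterByExpr on the groups, the quasi-likelihood test (glmQLFit, glmQLFTest) and Benjamini-Hochberg adjustment over all genes tested, with a threshold of 0.05. The library series was a covariate, or the animal a block for comparisons of chambers (with the series for LV against Spt). DESeq2 1.42.0 was an alternative, with RLE scaling, no filter, no covariate, a replicate block, the left-out animals put back, 30 LV libraries in 1 fit, series 2 alone and each library left out. The fits of AOB-H against Sham-H and of the LV against RV interaction were run on simulated counts. These held no library series effect and no outlying animal, so they do not cover those features of the data.

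The members and lists were chosen with earlier results of these data known. Named were a fixed set of genes; the 10 genes of lowest p in each direction with at least 1 CPM in the higher group, since no gene passed; up to 4 list members of lowest p; and 3 genes in each direction for the interactions and for PAB-H. Symbols beginning with LOC, RGD or Mir were passed over. Other genes named were chosen after their values were seen. No 2 replicates agreed within sampling noise (lowest chi-square per degree of freedom, 5.97). Promoters came from RefSeq (GRCr8), another build than that of the files. Some genes that these rules name are not reported here.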

Additional observations from a re-analysis of the deposited data

Results flagged for a closer look

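The highest or lowest animal of a group stood apart from the others by Dixon's criterion in 17 of 134 groups of named gene and condition. Chance flags about 1 in 20 such groups, and the genes are not independent, since 10 of the 17 were 1 animal, AOB-H animal 9 of series 2. In this animal the highest value was 4637 CPM for Nppa (next animal, 1557), 15140 for Myh7 (8571), 4317 for Acta1 (2080), 580 for Ankrd23 (186) and 110 for Tceal7 (30.7). It was also 5.53 CPM for Tgfa (2.27), 102 for Postn (17.9), 4.71 for Phyhipl (1.29), 31.1 for Thbs4 (8.47) and 54.2 for Ltbp2 (12.9).

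In AOB-H animal 16 Eno1 stood at 386 CPM (next, 293). Among the shams animal 13 had 89.1 CPM of Zfp36 (65.7). Sham-H animal 4 was highest in Cxcl14 with 6.19 CPM (3.92), in Thbs4 with 4.34 (2.59), in Arc with 14.9 (10.3) and in Per1 with 122 (90.4), and lowest in Nlrp3 with 1.15 (1.99). No cause was tested.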

How the results depend on the processing

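AOB-H against Sham-H in LV gave 0 DEGs by edgeR under every setting except the following. DESeq2 called 7 and the fit without library series 3, chosen after seeing the data, called 1 (Maoa, adjusted p = 0.0219). Leaving out each library gave 0 to 1, the 1 being Maoa without Sham-H replicate 7 (animal 8; 1.12, adjusted p = 0.0102), the only sham of series 3. AOB-H against PAB-H, the stage interaction and both chamber interactions gave 0 under every setting tried for them, leave-one-out included (0 to 0). For the next 3 comparisons the settings were chosen after seeing the data. AOB-F against Sham-LF gave 277 by DESeq2, 0 to 836 with 1 library left out (836 without AOB-F replicate 3, 79 without AOB-H replicate 3, 53 without AOB-F replicate 2) and 0 under the other settings, and its 1875 genes at an unadjusted p under 0.05 became 991 with a replicate block and 1150 to 2585 with 1 library left out. AOB-H against Sham-H in RV gave 1 with a replicate block (Penk) and 0 otherwise (0 to 0 with 1 library left out). In Spt it gave 0 throughout (0 to 0). Genes with such a p then ranged from 164 to 1149 in RV and from 138 to 1065 in Spt. The cause was not tested.

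Of 68 named genes, log2 fold changes near 0 turned sign in Ankrd2 without AOB-H replicate 3 (-0.13) or replicate 2 (-0.056; range with 1 library left out, -0.13 to 0.63), and in Atp2a2 with the left-out animals put back (0.016) or without Sham-H replicate 5 (0.015; range -0.14 to 0.015). The cause was not tested. The other values kept their direction, under leave-one-out in 813 of 816 values.

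At an unadjusted p under 0.05, the 657 genes became 416 without a covariate, 759 without a filter, and 350 to 1116 with 1 library left out (424 without Sham-H replicate 3, 350 without replicate 4, 1116 without replicate 5, 414 without AOB-H replicate 3). AOB-H against PAB-H went from 549 to 255 without a covariate and to 278 to 865 with 1 library left out. The stage interaction went from 653 to 1028 with the left-out animals put back and to 394 to 1422 with 1 library left out, the highest without AOB-F replicate 3. Against RV, 379 became 231 by DESeq2, 150 with the animals put back and 222 to 740 with 1 animal left out. Against Spt, 297 became 137 without the series and 182 to 573 with 1 animal left out.

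The labels give both groups replicate numbers. The deviations of same-numbered libraries from their group mean correlated with 0.783, 0.267, 0.304, -0.315 and 0.408, 1 of the 5 being negative. Same-numbered libraries also share a library series, which was not removed here, so these values cannot tell pairing from series. The numbers were not taken to pair the animals, and a replicate block was an alternative. With a replicate block AOB-H against Sham-H gave 0 DEGs and 538 genes at an unadjusted p under 0.05, AOB-H against PAB-H 0 and 320, and the stage interaction 0 and 295. Without the animal as a replicate block the chamber interactions gave 0 and 185 against RV, and 0 and 75 against Spt. With 6 animals in each group and 3 library series, a difference was seen only where it exceeded the spread between animals, and series 3 rests on 1 sham.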
